A study of Homo sapiens with 17 samples.

Results

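Nonsense-mediated decay (NMD) is the pathway that removes mRNAs on which a ribosome stops at a termination codon far from the normal 3′ end. It is carried out by the helicase UPF1, its partners UPF2, UPF3A and UPF3B, the kinase SMG1 with its regulators SMG8 and SMG9, and the effectors SMG5 and SMG6. The transcripts of these 9 genes, taken by symbol, are described here among the 19222 genes with reads in the 1 h table of the series, and all 9 were also found among the 9982 genes of both 2 h tables. NMD depends on translation, and mRNAs of several of the factors, UPF1, UPF2, SMG1 and SMG5 among them, are themselves known NMD substrates.

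The cells were HEK-293T, a line of human embryonic kidney cells labeled as wild type, and the alkaloid emetine blocks the elongation step of translation. In the 1 h experiment, 3 libraries came from untreated cells and 3 from cells with 1.8 µM emetine, all with 500 µM of the nucleoside 4-thiouridine (s4U), and 1 untreated and 1 emetine library came from cells without s4U. In the 2 h experiment, 3 libraries came from untreated cells, 3 from cells with 1.8 µM emetine and 3 from cells with 240 µM emetine, all with 250 µM s4U. TimeLapse chemistry turns s4U into a base that is read as C, so that reads with T-to-C conversions mark RNA made during the labeling. The labels do not say that libraries of a group came from separate cultures, so that the p-values measure the spread between these libraries, which may be technical.

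The libraries with s4U held between 22246279 and 40018063 reads given to genes. Reads of the HEK-293T markers PAX2, NEFM, INA, KRT8 and KRT18 were present in every 1 h library, PTPRC and CD3E were at 0 reads, and ALB had 0 to 10 reads. Emetine replicate 3 stood apart from the rest. The SD of its deviations from the group mean over 9815 genes was 0.263 on the log2 scale, against 0.0889 to 0.157 in the other 5 libraries. Its deviations correlated with transcript length (Spearman's rho 0.767, over genes, which do not count as independent replicates). Emetine replicates 1 and 2 each had a rho of -0.696, and deviations from a shared group mean balance each other. The level and unlabeled changes of the members are therefore given with and without emetine replicate 3.

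The loci are spread over the genome (GENCODE 44, GRCh38). UPF1 lies on chr19:18831959-18868230 on the plus strand, UPF2 on chr10:11920022-12043170 on the minus strand, UPF3A on chr13:114281601-114305817 on the plus strand and UPF3B on chrX:119834022-119852998 on the minus strand. SMG1 lies on chr16:18804860-18926408, SMG5 on chr1:156249224-156282825, SMG6 on chr17:2059839-2303785 and SMG9 on chr19:43727983-43754962, all on the minus strand, and SMG8 lies on chr17:59209400-59215239 on the plus strand. The canonical SMG1 transcript is 16062 bases long with 63 exons, longer than 99.4% of the genes with a length. The other 8 transcripts run from 2343 bases (UPF3B) to 5974 bases (SMG6), and SMG8 has the fewest exons, 4.

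Some of these transcripts have close relatives that limit how reads can be placed. SMG1 has pseudogene copies elsewhere in the genome, and 28.6% of its transcript was matched by at least 1 of 7 copies over 100 bases or more at 90% identity or more. The copies matched it at 94.1% (SMG1P7) to 98.5% (SMG1P6) identity. A stretch of 60 bases inside 1 coding exon of SMG1 and its counterpart in SMG1P1 is shown because it has 1 difference, printed in capitals. A read that lies wholly inside it can be told from SMG1P1 only by that base. The other copies were not compared over this stretch. The SMG1 stretch is chr16:18896897-18896956 on the minus strand, and that of SMG1P1 is chr16:22454702-22454761 on the plus strand.
SMG1: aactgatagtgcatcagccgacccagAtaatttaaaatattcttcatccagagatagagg
SMG1P1: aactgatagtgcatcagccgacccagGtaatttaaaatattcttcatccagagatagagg

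Over the 8 libraries of the 1 h table, SMG1 had 19151 reads. The copies SMG1P1, SMG1P2, SMG1P3, SMG1P5 and SMG1P7 had 2512 reads together, equal to 13.1% of the SMG1 reads, and SMG1P7 held 1547 of them. No reads were given to SMG1P4, SMG1P6 or the UPF3A pseudogenes. How the reads of the shared stretch were divided was not tested, so that the SMG1 values carry this limit.

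The paralogs UPF3A and UPF3B, which bridge UPF2 and the exon junction complex, are far more different. Their transcripts aligned over 640 bases of UPF3A, 27% of its length, at 68% identity. The coding stretch of 60 bases with the fewest differences between them has 14, in capitals, and is shown to make clear that reads of these paralogs can be told apart. It lies on chr13:114291634-114291693 (plus strand) in UPF3A and on chrX:119841199-119841258 (minus strand) in UPF3B, on the same build.
UPF3A: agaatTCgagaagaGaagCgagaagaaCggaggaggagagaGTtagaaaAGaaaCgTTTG
UPF3B: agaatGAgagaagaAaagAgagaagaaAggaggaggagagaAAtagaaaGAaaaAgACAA

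In untreated cells the members covered a wide range of levels per transcript length, and UPF3A stood at 0.0581 of SMG5. SMG5 was highest, at 58.3 ± 3.81 RPKM (SD, n = 3), the count scaled to library size by TMM and to the length of the canonical transcript, followed by UPF1 at 30.7 ± 1.19, UPF3B at 21.7 ± 2.15 and SMG8 at 18.3 ± 0.647 RPKM. SMG9 lay at 13.3 ± 1.13, SMG6 at 7.19 ± 0.475, UPF2 at 6.05 ± 0.807, SMG1 at 4.19 ± 0.243 and UPF3A at 3.39 ± 0.202 RPKM. No pair of neighbours in this order overlapped over the 3 untreated libraries, but SMG6 and UPF2 touched, with the lowest SMG6 library at 6.67 and the highest UPF2 library at 6.66 RPKM. SMG5 stood above 87.8% and UPF3A above 35% of the genes ranked by this level.

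The question of the 1 h comparison is how blocking elongation changes each transcript's level and whether RNA made before or during the hour accounts for it. With all 6 s4U libraries, none of the 9 transcripts passed the test of level, while the fitted log2 change lay above 0 for all 9, with a median of 0.25 against 0.03 over the 13776 genes tested. The test was edgeR's quasi-likelihood test with Benjamini-Hochberg adjustment, which called 2.64% of all genes raised and 0.0436% lowered at an adjusted p under 0.05. With edgeR, 6 of the 9 had an unadjusted p under 0.05 (UPF1, UPF2, SMG1, SMG6, SMG8 and SMG9), as 14.9% of all genes did with a change above 0 and 6.95% with a change below 0. DESeq2's Wald test also called 0 of 9, where it called 6.59% of 12440 genes raised and 1.25% lowered. In the same 6 genes all 3 emetine libraries lay above all 3 untreated libraries, as they did for 19.5% of all genes tested.

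**Figure D1:**
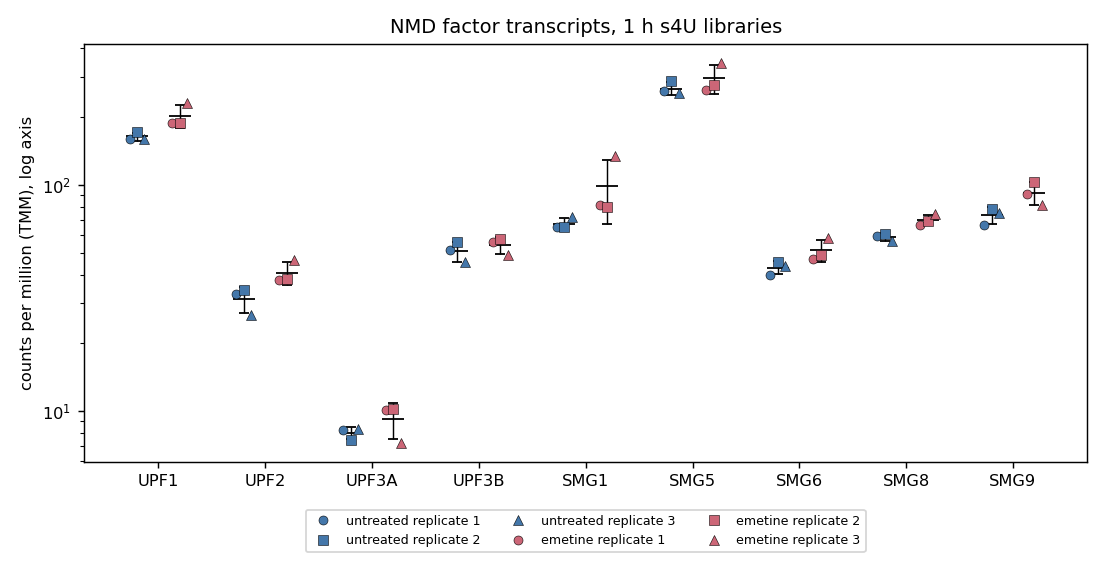
CPM (counts scaled to library size by TMM) of each NMD factor transcript (vertical axis, logarithmic) in the 3 untreated (blue) and 3 emetine (red) libraries with s4U, with the mean and SD in black. Emetine replicate 3 (red triangle) is the highest library for UPF1, UPF2, SMG1, SMG5, SMG6 and SMG8 and the lowest of the emetine libraries for UPF3A, UPF3B and SMG9.

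UPF1, the ATP-dependent helicase at the center of NMD, had 159, 171 and 160 CPM in untreated replicates 1 to 3 and 188, 188 and 229 CPM with emetine. The groups did not overlap, and emetine replicate 3 was the highest. The log2 change was 0.30 (SE 0.10, edgeR adjusted p = 0.164). UPF2, the adaptor that joins UPF1 to UPF3 proteins, had 32.8, 34.4 and 26.5 CPM untreated and 37.9, 38.3 and 46.4 CPM with emetine. Its log2 change was 0.38 (SE 0.13, edgeR adjusted p = 0.164), again without overlap of the groups, and 0.28 (SE 0.096) without emetine replicate 3.

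The UPF3 paralogs had the least separated libraries of the UPF genes. UPF3A had 8.25, 7.48 and 8.35 CPM untreated against 10.1, 10.2 and 7.25 CPM with emetine, so that emetine replicate 3 lay below every untreated library. It rested on the fewest reads of the 9, 165 to 410 per library. UPF3B had 51.3, 55.6 and 45.5 CPM untreated against 55.7, 57.5 and 48.7 CPM with emetine, and the groups overlapped. Their log2 changes were 0.20 (SE 0.16) and 0.09 (SE 0.11), with edgeR adjusted p of 0.465 and 0.639. Leaving out emetine replicate 3 gave larger values, 0.35 (SE 0.12, edgeR adjusted p = 0.0675) for UPF3A and 0.16 (SE 0.079) for UPF3B.

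SMG1, the kinase that phosphorylates UPF1, had the largest fitted change of the 9 with all 6 libraries. Its levels were 65.2, 64.9 and 71.8 CPM untreated and 81, 79.6 and 134 CPM with emetine. All emetine libraries were above all untreated ones, but replicate 3 lay far above the other two. The log2 change was 0.55 (SE 0.19, edgeR adjusted p = 0.169). Without emetine replicate 3 it was 0.26, below SMG9 (0.41), UPF3A (0.35) and UPF2 (0.28), and with all 8 libraries of the 1 h table it was 0.35, below SMG9 at 0.38. SMG8 and SMG9, which bind SMG1 and regulate its kinase activity, were measured without overlap as well. SMG8 had 59.2, 60.7 and 56.5 CPM untreated and 66.6, 69.1 and 73.9 CPM with emetine, and SMG9 had 66.2, 78.1 and 75.2 CPM untreated and 91, 103 and 81.5 CPM with emetine. For SMG9 replicate 3 was the lowest emetine library, unlike for SMG1 and SMG8. The log2 changes were 0.25 (SE 0.085) for SMG8 and 0.33 (SE 0.11) for SMG9, with edgeR adjusted p of 0.165 and 0.164.

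SMG6 is the endonuclease that cuts NMD substrates, and SMG5 is an adaptor that recruits further decay factors to phosphorylated UPF1. SMG6 had 39.9, 45.5 and 43.6 CPM untreated and 46.9, 49 and 58 CPM with emetine, without overlap. SMG5 had 259, 286 and 253 CPM untreated and 262, 277 and 345 CPM with emetine, so that only replicate 3 was above all untreated libraries. The log2 changes were 0.25 (SE 0.11, adjusted p = 0.221) for SMG6 and 0.15 (SE 0.12, adjusted p = 0.466) for SMG5 by edgeR. Leaving out emetine replicate 3 gave 0.16 (SE 0.072) for SMG6 and 0.02 (SE 0.064) for SMG5, so that the SMG5 value rested on that library.

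Without emetine replicate 3, edgeR called 4 of the 9 raised, where 10.1% of 13579 genes were called raised. They were SMG9 (log2 change 0.41, SE 0.076, adjusted p = 0.00297), SMG1 (0.26, SE 0.063, adjusted p = 0.0149), UPF1 (0.21, SE 0.057, adjusted p = 0.0276) and SMG8 (0.21, SE 0.062, adjusted p = 0.0389). With any other library left out instead, 0 of the 9 were called, but only 0.0294% to 1.77% of all genes were then called raised. Without emetine replicate 3, the median over the 9 was 0.21 against 0.01 over all genes. When a trend with transcript length and GC content was also removed, which was chosen after seeing the data, UPF1, SMG1 and SMG9 were called, where 8.52% of genes were called raised, and SMG5 lay at -0.03. With the trend removed and all 6 libraries kept, 0 of the 9 were called, and the changes were smaller, at 0.28 for SMG1, 0.21 for SMG9, 0.19 for UPF1 and UPF3A, 0.17 for UPF2, 0.16 for SMG8, 0.11 for SMG6, 0.04 for SMG5 and 0.03 for UPF3B. Over all genes 727 were then raised and 637 lowered, against 363 and 6 without that correction.

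**Figure D2:**
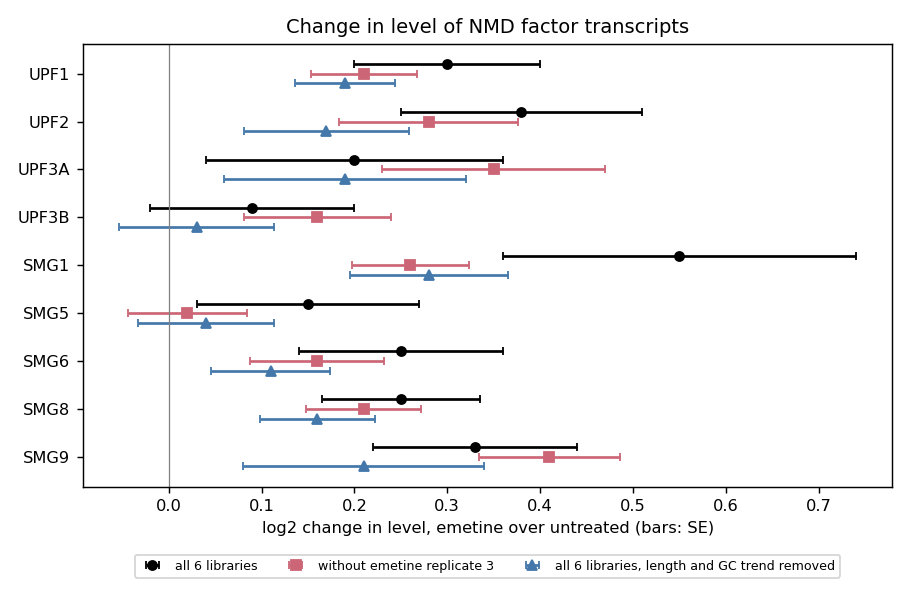
Fitted log2 change in level (horizontal axis, emetine over untreated) with its SE for each NMD factor transcript, with all 6 libraries (black), without emetine replicate 3 (red) and with a length and GC trend removed (blue). SMG1 lies at 0.55 with all 6 libraries and at 0.26 without replicate 3, while SMG9 lies at 0.33 and 0.41.

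Emetine replicate 3 also differed in where its reads lay on these transcripts. Reads that crossed a splice junction made up 25.1% of the SMG1 reads in this library and 5.55% to 8.88% in the other 7 libraries of the 1 h table. The share was also highest in this library for UPF1 (48.2%), SMG5 (42.7%), UPF2 (42.3%), UPF3A (38.3%), SMG6 (29.5%) and SMG9 (64.9%). For SMG8, whose transcript has 4 exons, it was the lowest there, at 12.7% against 16.9% to 25.5%. UPF3B, at 34.1%, lay within the range of the others, and over all genes the share of replicate 3 was 45.4%, inside the range of 39.9% to 50.5% of the 1 h libraries. What part this has in the level of these genes in replicate 3 was not tested.

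The libraries without s4U, 1 in each arm, give values for which there is no replicate check. UPF1 had 159 CPM without emetine and 190 CPM with it, SMG8 54.9 and 69.6, SMG9 70.6 and 102, UPF2 34.1 and 40.9, and SMG6 40.1 and 46.3 CPM. UPF3A had 7 and 11 CPM and UPF3B 53.2 and 61.7 CPM, whereas SMG5 had 250 and 247 CPM and SMG1 78 and 66.3 CPM. Thus 7 of the 9 had a log2 ratio above 0, from 0.20 (SMG6) to 0.65 (UPF3A), beside a median of 0.001 over all genes. SMG1 at -0.23 and SMG5 at -0.02 were below 0. An edgeR test of the difference between the emetine effects with and without s4U called 0 of 14102 genes, and for SMG1 it gave 0.78 (SE 0.38, unadjusted p = 0.0686, adjusted p = 0.986).

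The fraction new is the share of a gene's reads that came from RNA made during the hour of labeling, estimated from the T-to-C conversions. In untreated cells SMG8 was highest in each of the 6 s4U libraries, with 25.6%, 36.6% and 40.9% in the untreated replicates, and SMG5 was lowest in each untreated library, with 7.36%, 9.63% and 12.5%. Under a steady state these values correspond to half-lives of 79.2 to 141 min for SMG8 (median 91.2) and of 312 to 544 min for SMG5 (median 411). By the mean untreated fraction new, SMG8 stood above 88.4% and SMG5 above 40.4% of the genes measured. UPF3B was close to SMG5, at 8.98%, 10.6% and 13.8%, whereas the other 6 members had untreated means between 15.6% and 20.3%.

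The signal behind these values came from s4U. Reads with at least 2 conversions made up between 3.63% (UPF3A) and 33.1% (SMG8) of a member's reads in the libraries with s4U, and between 0% and 0.155% in those without it.

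With emetine, none of the 9 passed the test of fraction new, which was made with limma on the logit scale with Benjamini-Hochberg adjustment. It called 0.214% of 10763 genes raised and 4.83% lowered. The fitted change was below 0 for all 9, with a median of -0.30 on the logit scale against -0.16 over all genes. At an unadjusted p under 0.05, limma gave 1 of the 9, UPF3A, where 15.4% of all genes were below 0 at this p and 1.15% above. In none of the 9 were all 3 emetine libraries below all 3 untreated ones, which held for 16.8% of all genes.

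**Figure D3:**
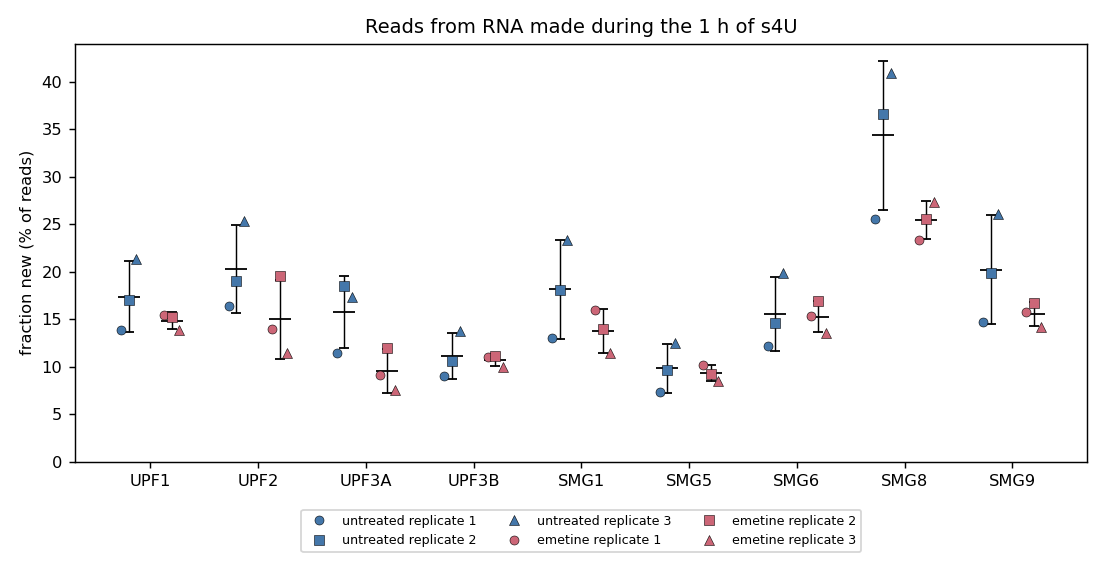
Fraction new in percent (vertical axis) of each NMD factor transcript in the 3 untreated (blue) and 3 emetine (red) libraries with s4U, with the mean and SD in black. Untreated replicate 1 (blue circle) is the lowest untreated library for all 9 genes, and SMG8 stands above the other members in every library.

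UPF3A had the largest change, from 11.4%, 18.5% and 17.3% in untreated cells to 9.14%, 12% and 7.52% with emetine. The groups overlapped only through untreated replicate 1. The change was -0.57 (SE 0.21, limma adjusted p = 0.116). SMG8 went from 25.6%, 36.6% and 40.9% to 23.4%, 25.6% and 27.4%, and its change was -0.42 (SE 0.22, limma adjusted p = 0.329). UPF2 went from 16.4%, 19% and 25.4% to 14%, 19.6% and 11.4%, with a change of -0.37 (SE 0.21, adjusted p = 0.404 by limma), and its groups overlapped widely.

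For the other 6, the emetine libraries lay inside or close to the untreated range. SMG1 had 13%, 18.1% and 23.4% untreated and 16%, 14% and 11.4% with emetine, and SMG9 had 14.7%, 19.9% and 26.1% untreated and 15.8%, 16.7% and 14.2% with emetine. UPF1 had 13.9%, 17% and 21.3% untreated and 15.5%, 15.2% and 13.9% with emetine. SMG5, SMG6 and UPF3B had fitted changes of -0.04, -0.01 and -0.03 with an SE of 0.21 or 0.22 each. Their sign was not stable: each was above 0 without emetine replicate 3, without untreated replicate 3 and after centering on library medians.

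The untreated libraries differed from each other in the labeling of all genes. The median fraction new over 10763 genes was 9.26%, 12.3% and 14.7% in untreated replicates 1 to 3, against 10.7%, 11% and 10.3% in the emetine replicates, and each of the 9 members was lowest in untreated replicate 1 among the untreated libraries. Without that library limma called 3 of the 9 lowered, UPF3A (-0.74, adjusted p = 0.0191), SMG8 (-0.62, adjusted p = 0.0128) and SMG9 (-0.48, adjusted p = 0.0487), but 23.5% of all genes were then called lowered, with a median of -0.31.

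Splitting the CPM of each gene by its fraction new gave the labeled reads, from RNA made during the hour, and the unlabeled reads, from RNA that was there before. For labeled reads, limma on log2(CPM + 0.5) called 0 of the 9 in either direction, with 0.26% of all genes raised and 0.632% lowered, and 0 of the 9 had an unadjusted p under 0.05, against 12.2% of all genes in either direction. The median change was 0.05 against -0.14 over all genes, 5 members were above 0 and 4 below, and the fitted changes ran from -0.35 (UPF3A, SE 0.28) to 0.23 (SMG6, SE 0.25). Between them lay SMG8 at -0.16, UPF2 at -0.05, SMG9 at -0.02, UPF3B at 0.05, UPF1 and SMG5 at 0.09 and SMG1 at 0.12, each with an SE of 0.22 to 0.26. The labeled reads of SMG1 were 8.51, 11.7 and 16.8 CPM untreated and 12.9, 11.2 and 15.2 CPM with emetine, within the same range.

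For unlabeled reads all 9 changes were above 0, with a median of 0.34 against 0.04 over all genes. None passed limma's test with all 6 libraries, which called 7.3% of all genes raised and 0.0929% lowered, and 5 of the 9 had an unadjusted p under 0.05 (UPF1, UPF2, SMG1, SMG8 and SMG9), as 19.4% of all genes did with a change above 0. The closest to the threshold were SMG9 (0.41, SE 0.11, adjusted p = 0.0537 by limma) and SMG8 (0.43, SE 0.12, adjusted p = 0.0612). In UPF1, UPF2, SMG1, SMG6, SMG8 and SMG9 the emetine libraries all lay above the untreated ones, as for 23.9% of all genes.

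SMG9 had 56.4, 62.5 and 55.6 unlabeled CPM untreated and 76.6, 85.6 and 69.9 with emetine. SMG8 had 44.1, 38.4 and 33.4 unlabeled CPM untreated and 51.1, 51.4 and 53.6 with emetine, so that here replicate 3 lay close to the other emetine libraries. SMG1 had 56.7, 53.1 and 55 unlabeled CPM untreated and 68.1, 68.5 and 119 with emetine, and UPF1 had 137, 141 and 126 against 159, 159 and 197. For SMG1 and UPF1 it was again replicate 3 that widened the spread. UPF2 had 27.4, 27.9 and 19.8 unlabeled CPM untreated against 32.5, 30.7 and 41.1 with emetine. The changes of UPF3A and SMG6 were 0.26 (SE 0.16) and 0.25 (SE 0.12), and those of SMG5 and UPF3B were 0.15 (SE 0.13) and 0.09 (SE 0.12).

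Without emetine replicate 3, limma called the unlabeled reads of 4 members raised, beside 13.7% of all genes. They were the same 4 as for the level, SMG9 (0.48, SE 0.079, adjusted p = 0.00108), SMG1 (0.31, SE 0.071, adjusted p = 0.00907), SMG8 (0.41, SE 0.10, adjusted p = 0.0155) and UPF1 (0.24, SE 0.065, adjusted p = 0.022). Unlabeled reads made up most of the level of each member, so that both tests rested largely on the same reads. The other changes were then 0.40 for UPF3A, 0.35 for UPF2, 0.16 for UPF3B, 0.15 for SMG6 and 0.02 for SMG5. Without untreated replicate 1, SMG8 alone was called by limma (0.53, adjusted p = 0.0431), beside 6.34% of all genes.

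**Figure D4:**
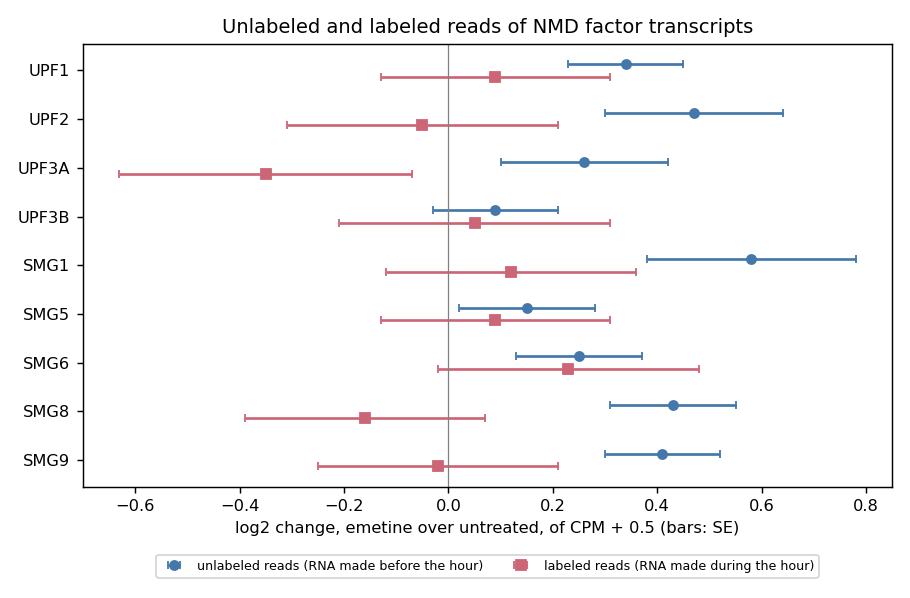
Fitted log2 change (horizontal axis, emetine over untreated, of CPM + 0.5) with its SE in unlabeled (blue) and labeled (red) reads of each NMD factor transcript. All 9 unlabeled changes lie above 0, from 0.09 to 0.58, while the labeled changes lie on both sides of 0, from -0.35 to 0.23.

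Other genes of the pathway were compared by fixed lists. Of 13 transcripts known as NMD targets, edgeR called 3 raised in level, where 2.64% of all genes were called raised. All 3 of them were stress-responsive genes. They were ATF3, a transcription factor (log2 change 1.91, SE 0.14, adjusted p = 0.000845), and the growth-arrest genes GADD45B (1.30, SE 0.18, adjusted p = 0.0113) and GADD45A (1.24, SE 0.18, adjusted p = 0.0134). The level change was above 0 for 11 of the 13 and below 0 for 2. ATF4 lay at 0.03, ZFAS1 at 0.03, NAT9 at 0.07, TBL2 at -0.02 and UPP1 at -0.16. By limma, the fraction new of 5 was lowered, where 4.83% of all genes were lowered. Among them were the small nucleolar RNA host transcripts SNHG12 (-1.59, SE 0.27, adjusted p = 3.66e-05) and SNHG1 (-0.97, SE 0.25, adjusted p = 0.00984). GADD45A (-1.19), the stress transcription factor DDIT3 (-1.14) and GADD45B (-1.01) made up the rest. In fraction new, ATF3 (0.53), ZFAS1 (0.23) and UPP1 (0.18) lay above 0 and the other 10 below. Unlabeled reads of 7 of the 13 were raised, beside 7.3% of all genes, with a list median of 0.69 where the NMD factors had 0.34. Labeled reads of ATF3 and GADD45B were raised as well, beside 0.26% of all genes, so that the list did not move in unlabeled reads alone. Without emetine replicate 3, 8 of the 13 were raised in level and 9 in unlabeled reads, beside 10.1% and 13.7% of all genes. In fraction new 3 were then lowered (DDIT3, GADD45A and SNHG12), where 1.9% of all genes were lowered.

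In 4 further lists no gene passed in level, fraction new, labeled or unlabeled reads with all 6 libraries, by edgeR or limma. The 6 exon junction complex genes, whose proteins mark spliced mRNA for NMD, had a median level change of -0.19, and none lay above 0, with RNPS1 at -0.22 (SE 0.10). This median was -0.05 without emetine replicate 3. In this list the largest change in fraction new was 0.52 in MAGOHB (SE 0.22). The 6 decapping and 5′ decay genes had a median level change of 0.16, with all 6 above 0 and the exonuclease XRN1 at 0.50 (SE 0.20). XRN1 had 15.5, 18.5 and 16.9 CPM untreated and 20.1, 19.3 and 32.9 CPM with emetine, so that replicate 3 was far above the rest, and in the pair without s4U it had 21 CPM untreated and 19.1 CPM with emetine. The median of this list was 0.10 without emetine replicate 3. The 5 genes that assist SMG1 or partner with SMG5 had a median of 0.05 (-0.04 without emetine replicate 3), with the ATPase RUVBL2 at -0.34 (SE 0.14), and the 3 release factor genes a median of -0.07, with GSPT2 at 0.30 (SE 0.15). At an unadjusted p under 0.05 edgeR gave 2 of 5 SMG1 assembly and SMG partner genes, 1 of 6 decapping and decay genes, and 0 of the exon junction and release factor genes in level, beside 21.9% of all genes in either direction. Without emetine replicate 3, edgeR called DHX34 and DCP1B raised and RUVBL2 lowered, where 10.1% of all genes were raised and 3.87% lowered. In unlabeled reads limma then called 2 of the 6 decapping and decay genes raised. Of the 5 SMG1 assembly and SMG partner genes it called 1 raised and 1 lowered, beside 13.7% and 3.56% of all genes.

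The 2 h tables give 1 value per gene that is not a comparison, the authors' mean of the spike-in normalized counts over all 9 libraries of both doses and untreated cells. The 2 h libraries were made from total RNA with another kit and normalized apart from those of 1 h, so that the values are set side by side as ratios to SMG5 and were not tested. Per kilobase of transcript, SMG5 was again highest and UPF3A lowest, at 0.064 of SMG5 in the 2 h mean and 0.0581 of SMG5 in untreated cells at 1 h. SMG1 moved most, from place 8 of 9 at 1 h, at 0.0719 of SMG5, to place 2 at 2 h, at 0.466. UPF2 stood at 0.104 of SMG5 at 1 h and 0.284 at 2 h, whereas SMG9 went the other way, from 0.228 to 0.11. UPF1 (0.527 and 0.413), UPF3B (0.372 and 0.298), SMG8 (0.314 and 0.409) and SMG6 (0.123 and 0.118) stayed within a narrower range. The mean for SMG1 was 10103 normalized counts, beside 433, 289 and 338 for its copies SMG1P1, SMG1P2 and SMG1P3.

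**Figure D5:**
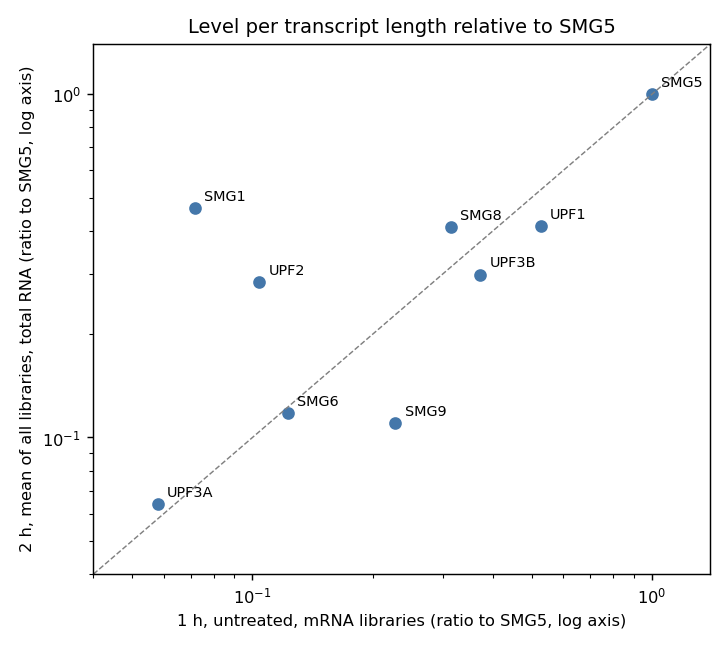
Level per transcript length relative to SMG5 of each NMD factor transcript, in untreated cells at 1 h (horizontal axis) and in the authors' mean over all 2 h libraries (vertical axis), both logarithmic, with the line of equal ratios dashed. SMG1 (0.0719 and 0.466) and UPF2 (0.104 and 0.284) lie above the line and SMG9 (0.228 and 0.11) below it.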

How the data were processed

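For the 1 h experiment, the authors trimmed reads with cutadapt, mapped them to hg38 with hisat-3n and made with bam2bakR a table of deposited whole read counts per gene, T positions and conversions, without normalization. For the 2 h experiment only the deposited signal values, the authors' mean of spike-in normalized counts over all 9 libraries, were used. The log2 fold changes and p-values of the authors' own 2 h comparisons, which the same tables hold, were not used, and 2 h read counts were not analysed here.

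Reads given to exons of 1 gene were summed, leaving out the 16% to 17.2% with no gene and the 0.976% to 1.09% that were ambiguous. Levels of genes with over 100 counts in total were compared with edgeR 4.0.16 (TMM, quasi-likelihood test) in R 4.3.3. Fraction new was the weight of a 2-component binomial mixture (new-read conversion rate 8.49% to 9.53% per library, background 0.0504% untreated and 0.0521% with emetine, from the libraries without s4U), a stand-in for bakR, fitted in Python 3.11.15 with scipy 1.17.1, numpy 2.4.6 and pandas 2.3.3. Its logit, bounded to 0.001 and 0.999, and labeled and unlabeled log2(CPM + 0.5), which understate the change of low genes, were compared with limma 3.58.1 (trend, robust) where every one of the 6 libraries had 100 reads or more. P-values were adjusted by Benjamini-Hochberg over all genes tested. Half-lives assume a steady state and labeling from the start of the hour. Coordinates, lengths and sequences came from GENCODE 44, with copies aligned by blastn 2.17.0, and 17152 of 19222 genes had a match. Figures were drawn with matplotlib 3.10.9.

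Tested on simulated data, the level step recovered 38% of log2 changes of 0.5 and 98% of changes of 1 among 13776 genes, with 6.21% of calls false. For fraction new among 10763 genes, 9% of logit changes of 0.5 and 77% of changes of 1 were recovered, with 8.51% false. The simulated noise was drawn for each gene apart, without shifts shared by the genes of a library. The data hold such shifts, so that these rates may not carry over to them. The members, the other lists and the tests were chosen with earlier results of these data known. All 9 members are named. Genes of the other lists are named where they passed in level or fraction new, or had the largest change in a list. Of the NMD targets, those near or below 0 in level or above 0 in fraction new are named as well. Alternatives covered normalization, DESeq2 1.42.0, filters, pseudocounts, centering, the conversion rate, weighting, a length and GC trend (mgcv 1.9.3) and leaving out each library.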

Additional observations from a re-analysis of the deposited data

Results flagged for a closer look

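The level of SMG1 was flagged because it went opposite ways with and without s4U. In the pair of libraries without s4U, the log2 ratio of emetine to untreated was -0.23 (66.3 against 78 CPM), whereas with s4U all 3 emetine libraries lay above all 3 untreated ones. The difference was tested as an interaction in edgeR over all 8 libraries and did not pass (0.78, SE 0.38, unadjusted p = 0.0686, adjusted p = 0.986). Each arm without s4U holds 1 library, and reads shared with the SMG1 copies were not separated.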

How the results depend on the processing

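With 3 libraries against 3, most changes in these 9 genes lay under 0.5 in log2 or logit, a size at which the recovery by these tests was not tested. Scaling to the spike-in reads shifted the median of all genes to 0.71 and that of the 9 level changes to 0.92, so that the members relative to all genes lay as before, and 0 of 9 were called. Over the libraries left out one at a time, the median level change ran from 0.21 to 0.31, with 0 to 4 members raised, 4 without emetine replicate 3. The share of all genes raised ran from 0.0294% to 10.1%, the highest without emetine replicate 3. Leaving out this library and removing the length and GC trend, an alternative added after seeing the data, gave 3 raised and SMG5 at -0.03. The median change in fraction new ran from -0.48 (without untreated replicate 1) to -0.12 (without untreated replicate 3), with 0 to 3 lowered, and was -0.17 after centering on library medians. Centering turned UPF3B and SMG5 to 0.09 each and SMG6 to 0.12, and SMG6 was 0 with 1 new-read rate and 0.01 with weights by read count. Leaving out libraries gave UPF3B -0.14 to 0.10, SMG5 -0.18 to 0.11 and SMG6 -0.14 to 0.15. For labeled reads the median ran from -0.11 to 0.20 over the left-out libraries, 0.07 with at least 500 reads and 0.18 after centering, where UPF2 was 0.08 and SMG9 0.11. Single labeled changes crossed 0 with libraries left out, with ranges of -0.08 to 0.23 (UPF1), -0.20 to 0.03 (UPF2), -0.08 to 0.16 (UPF3B), -0.10 to 0.36 (SMG1), -0.11 to 0.24 (SMG5) and -0.29 to 0.20 (SMG9). For unlabeled reads the median ran from 0.30 to 0.39 with 0 to 4 raised, and was 0.24 after centering, where UPF3B was -0.01. UPF3B ran from 0 (without untreated replicate 3) to 0.16 with libraries left out. The cause of these shifts was not tested.

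Same-numbered deviations in level correlated at 0.0604, -0.0345 and -0.197, and differently numbered ones at -0.264 to 0.18. Deviations from a mean of 3 libraries depend on each other, so that these values cannot tell whether the replicate numbers pair the libraries. A replicate block gave medians of 0.25, -0.30, 0.05 and 0.34 for level, fraction new, labeled and unlabeled reads with 0 members called, and moved the raised genes in level from 363 to 75 over all genes and in unlabeled reads from 786 to 350. The lowered genes in fraction new went up, from 520 to 647.

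Counts over all genes moved as well. In level, 363 raised and 6 lowered became 60 and 0 with spike-in scaling, 820 and 156 with DESeq2's Wald test, 646 and 30 with all 8 libraries, 727 and 637 with the trend removed, 1067 and 1580 with replicate 3 also left out, and 4 to 1367 raised and 0 to 525 lowered over the left-out libraries. In fraction new, 23 raised and 520 lowered became 14 and 298 at 50 reads, 14 and 227 at 500 reads, 126 and 748 after centering, 40 and 647 with the block, and 94 to 2524 lowered over the left-out libraries. In labeled reads, 28 and 68 became 183 and 251 after centering, and 2 to 1733 lowered over the left-out libraries. In unlabeled reads, 786 and 10 became 225 and 4 at 500 reads, 589 and 33 after centering, and 271 to 1474 raised over the left-out libraries.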
